A study of Rattus norvegicus with 9 samples.

Results

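The 9 genes followed here belong to the JAK-STAT3 cytokine pathway and were measured in the retina of diabetic rats. They are the transcription factors Stat2, Stat3, Stat5a and Stat5b, the kinases Jak1 and Jak2, the receptor chains Il6st and Osmr, and the feedback inhibitor Socs3. They were chosen by symbol in the array annotation, out of 12978 genes with a symbol. A probe was listed for 7 of the 9, with 1 probe each, and 5 of those 7 were detected well enough to be tested. Stat2 and Il6st had no probe under their names and were not analysed here.

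Cytokines of the IL-6 family, such as LIF, CNTF and oncostatin M, bind a receptor that contains the gp130 chain encoded by Il6st. JAK kinases held by the receptor then phosphorylate STAT3, which pairs, enters the nucleus and switches on its target genes, among them Socs3, whose protein shuts the receptor down again. In the retina this pathway is known from the response of Müller glia, the supporting glia of the retina, to injury and to CNTF. The arrays measured transcripts, so phosphorylation of STAT3 was not part of the data.

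The diabetic group was 4 male Sprague-Dawley rats given 65 mg/kg streptozotocin (STZ), a toxin of insulin-producing cells, by intraperitoneal injection in citrate vehicle. The control group was 5 male Sprague-Dawley rats given the vehicle alone. Whole retinas were taken 3 months after injection and total RNA was hybridized to Illumina RatRef-12 BeadChips. All 4 diabetic retinas and controls 4 and 5 were on BeadChip 2, and controls 1, 2 and 3 were on BeadChip 1. Whole retina mixes many cell types, and a lower number of cells of a type cannot be told apart from less RNA per cell.

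The median array signal was 76.9 to 87.9 in diabetic retinas and 70.0 to 84.4 in controls, and 11207 to 11609 and 10843 to 11524 probes were detected in those groups. The detection p is the share of negative controls at least as bright as a probe. Of 22226 probes, 10261 were below 0.05 in each diabetic or in each control retina, and these were tested. Diabetic and control retinas differed at 956 of the 10261 tested probes (9.32%, limma, Benjamini-Hochberg adjusted p under 0.05), 497 higher (4.84%) and 459 lower (4.47%). The higher share of these calls was 52.0%, and 87.0% of the 77 calls (0.750% of probes) made when arrays were scaled by their medians. All 5 rod markers with a probe, which define retina, were detected in both groups, with Sag at 13.98 ± 0.12 in diabetic and 14.07 ± 0.07 in control retinas (log2 intensity, mean ± SD, n = 4 and 5). Of these 5 rod genes 2 fell, Nrl by 0.59 (adjusted p = 0.0163) and Rcvrn by 0.24 (adjusted p = 0.0386, a call lost in 6 of the 9 cases of 1 retina left out). Of 10 lens fibre genes 9 were tested and 8 rose, and their summed linear intensity was 64421 to 98547 in diabetic and 4871 to 14876 in control retinas.

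Stat3 was the one member called, and the other 4 tested members, Stat5a, Stat5b, Jak1 and Jak2, did not pass the adjusted threshold. The count of 1 of 5 tested members stood against 9.32% of all tested probes. At the methods' thresholds, an unadjusted p under 0.05 and 1.2-fold, Stat3 was again the one member called, against 10.0% of all probes.

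Stat3 log2 intensity was 8.13, 8.75, 8.78 and 8.95 in diabetic retinas 1 to 4, and 7.83, 7.85, 7.97, 7.93 and 8.23 in control retinas 1 to 5. Diabetic retinas 2, 3 and 4 lay above all controls, while diabetic retina 1 lay below control 5. The means were 8.65 ± 0.36 and 7.96 ± 0.16 in diabetic and control retinas (SD, n = 4 and 5). Stat3 was 0.69 higher in the diabetic group on the log2 scale (SE 0.16, 95% interval 0.32 to 1.06, 1.61-fold, limma adjusted p = 0.0344). In the deposited signals, before any scaling, the diabetic values were 463, 525, 624 and 612 and the control values 288, 242, 299, 368 and 410. On that scale the groups did not overlap, as was also the case after median scaling. The share of all probes without overlap was not counted on these scales. Without background correction the groups overlapped, with the lowest diabetic value at 8.57 and the highest control at 8.67. In the authors' own normalized values they also overlapped, at 8.57 and 8.68.

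**Figure D1:**
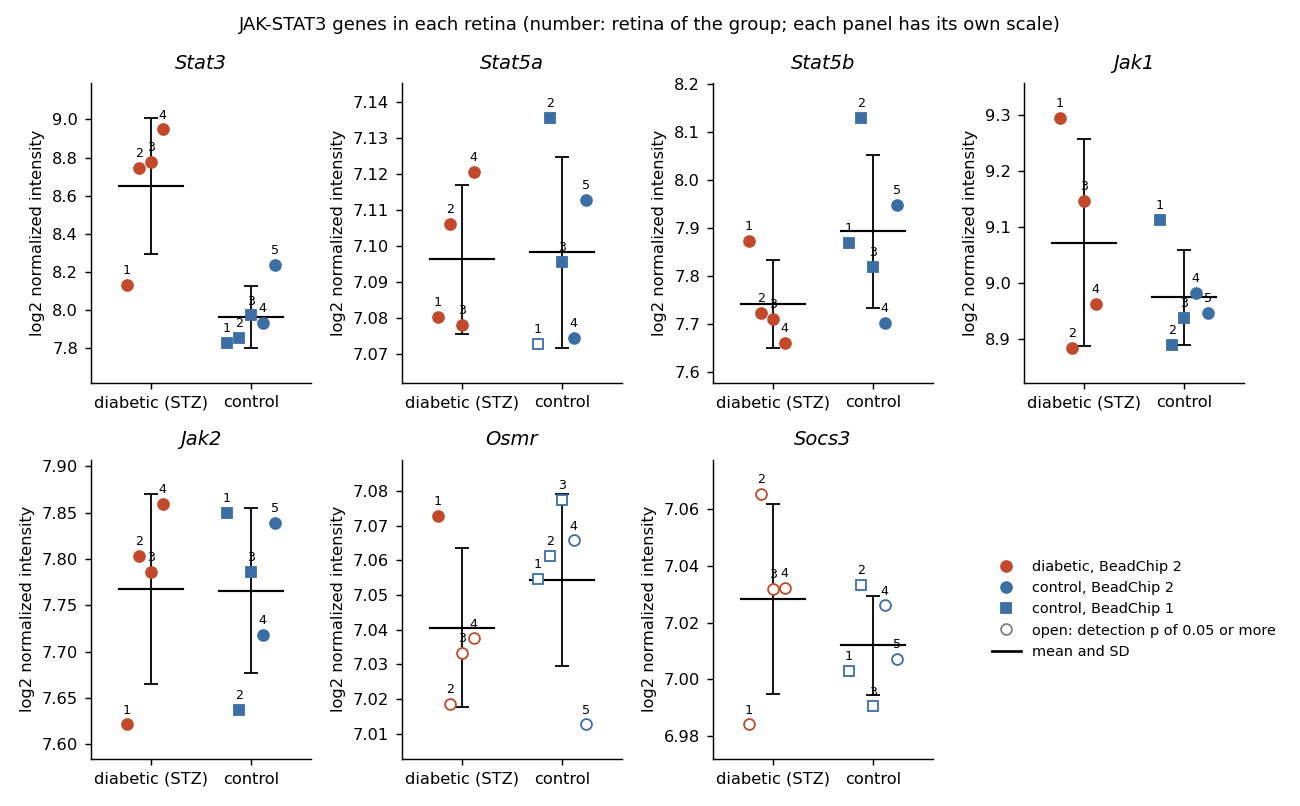
Log2 normalized intensity (y axis) of the 7 members with a probe in each diabetic (left, red) and control (right, blue) retina, with the group mean and SD in black, squares for BeadChip 1, circles for BeadChip 2 and open symbols for retinas where the probe was not detected. For Stat3, 3 of 4 diabetic retinas lie above all controls, and its means were 8.65 and 7.96, while the groups overlap for each other member.

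The direction of the Stat3 difference held in 19 of 19 alternative processings, but the adjusted call held in 7. The controls of BeadChip 1 averaged 7.88 and those of BeadChip 2 averaged 8.08. With the BeadChip as a block, Stat3 was 0.57 higher in the diabetic group (SE 0.21, adjusted p = 0.227). Within BeadChip 2 alone, with 4 diabetic and 2 control retinas, the difference was 0.57 (SE 0.24, adjusted p = 0.366, unadjusted p = 0.0630). Leaving out diabetic retina 1 gave a difference of 0.86 (adjusted p = 0.00441), and leaving out control 5 gave 0.76 (adjusted p = 0.0388). Leaving out diabetic retina 2, 3 or 4 gave an adjusted p of 0.0652, 0.0928 or 0.0659, and leaving out control 1, 2, 3 or 4 gave 0.0741, 0.0707, 0.0731 or 0.0806.

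**Figure D2:**
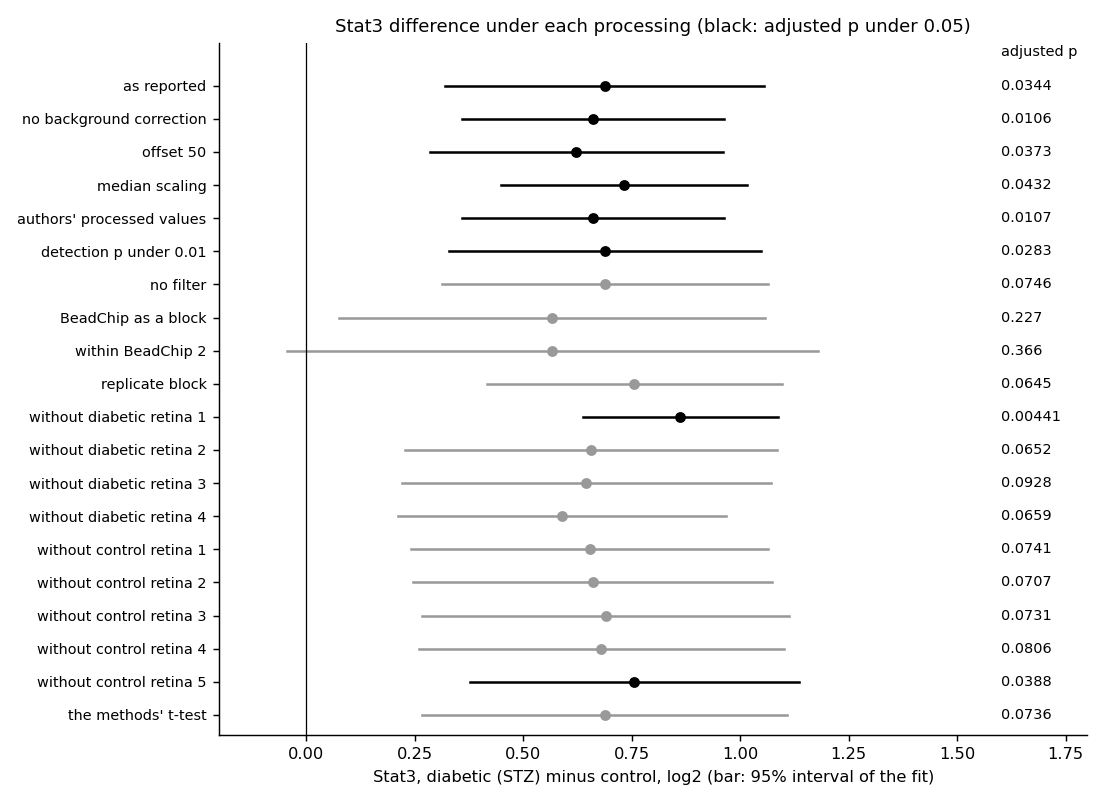
Difference of Stat3, diabetic minus control, on the log2 scale (x axis) with its 95% interval under the reported processing and 19 alternatives (y axis), black where the adjusted p was under 0.05. All points are positive, between 0.57 and 0.86, and the interval includes 0 within BeadChip 2.

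Stat5a and Stat5b encode the factors that act downstream of growth hormone, prolactin and several blood cytokines. In the rat assembly GRCr8 they lie next to Stat3 on chromosome 10, in the order Stat5b, Stat5a, Stat3. Stat5b log2 intensity was 7.87, 7.72, 7.71 and 7.66 in diabetic retinas and 7.87, 8.13, 7.82, 7.70 and 7.95 in control retinas. The groups overlapped, and the difference was -0.15 (SE 0.08, 95% interval -0.34 to 0.04, adjusted p = 0.301). Stat5a log2 intensity was 7.08, 7.11, 7.08 and 7.12 in diabetic retinas and 7.07, 7.14, 7.10, 7.07 and 7.11 in control retinas. These values were close to the lowest detected level, 7.04 to 7.05 across arrays, and 1 control was not detected. Its difference was -0.00 (SE 0.02, 95% interval -0.05 to 0.05, adjusted p = 0.972). Background correction narrows differences near the detection limit, and without it the difference was -0.01 (SE 0.09).

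Jak1 and Jak2 encode the kinases that gp130 receptors use. Jak1 log2 intensity was 9.29, 8.88, 9.15 and 8.96 in diabetic retinas and 9.11, 8.89, 8.94, 8.98 and 8.95 in control retinas. Diabetic retinas 1 and 3 lay above all controls and retina 2 below all of them, and the difference was 0.10 (SE 0.08, 95% interval -0.09 to 0.29, adjusted p = 0.530). Jak2 log2 intensity was 7.62, 7.80, 7.79 and 7.86 in diabetic retinas and 7.85, 7.64, 7.79, 7.72 and 7.84 in control retinas. The groups covered nearly the same span, with a difference of 0.00 (SE 0.06, 95% interval -0.13 to 0.14, adjusted p = 0.991).

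Osmr and Socs3 stayed at background and were not tested. Osmr, the chain that pairs with gp130 to bind oncostatin M, had signals of 86.6, 59.6, 67.4 and 64.7 in diabetic retinas and 75.3, 66.0, 76.2, 80.9 and 59.6 in control retinas, and was detected in diabetic retina 1 alone. Socs3 had signals of 51.5, 74.9, 66.9 and 63.1 in diabetic retinas and 58.8, 58.3, 49.0, 66.3 and 57.8 in control retinas, and was detected in none of the 9. The groups overlapped for both genes, and a change below the detection limit of the array could not be seen.

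Stat3 was also set against the other members within each retina. The log2 difference of Stat3 and Jak2 was 0.51 to 1.09 in diabetic retinas and -0.02 to 0.40 in control retinas, with no overlap. Without background correction it was 0.65 to 1.04 in diabetic and -0.03 to 0.44 in control retinas, and with median scaling 0.67 to 1.12 and -0.02 to 0.38, again with no overlap. The ranges of Stat3 minus Jak1, Stat5a and Stat5b overlapped between the groups, through diabetic retina 1 in each case. These pairs were not read on the other scales. Single probes without overlap, in either direction, made up 13.0% of all tested probes, and that share was not counted for differences from Jak2. The values describe an unequal difference of the Stat3 and Jak2 probes, not which of them changed. They come from the same retinas as the single differences of Stat3 and Jak2 above and are no separate test.

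The rest of the pathway was read from 85 further genes in 8 lists, of which 66 had a probe and 38 were tested. In these lists 10 rose, 1 fell and 27 did not pass the threshold, where 4.84% of all tested probes rose and 4.47% fell. Of the 32 that were detected in every retina, 8 rose and 1 fell, with a median difference of 0.11 against -0.02 over the 9496 probes detected in every retina. All 8 lists were drawn up with earlier results of these arrays known, and their counts are a description. Of the 10 that rose 9, and also the 1 that fell, were in the list of known STAT3 targets. The remaining riser was a receptor chain, and no ligand, kinase, STAT factor or inhibitor passed.

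Among ligands of the IL-6 family, 1 of 8 genes with a probe was tested. Cntf, a neurotrophic cytokine of glia, was 9.95, 10.18, 10.53 and 9.70 in diabetic retinas and 9.52, 9.69, 9.35, 9.45 and 9.63 in control retinas. Each diabetic value lay above each control value, yet the difference of 0.56 (SE 0.15) missed the threshold at an adjusted p of 0.0554. Groups that do not overlap, in either direction, were seen at 13.0% of all tested probes. Il6, Lif, Clcf1 and Lep were detected in no retina.

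The receptor subunits of the family gave 2 tested genes of 6 with a probe. Il6r, which binds IL-6 itself, differed by 0.06 (SE 0.03, adjusted p = 0.204) and had the smallest p of the 2, with levels near background in both groups. Lifr, Il27ra and Lepr were detected in no retina.

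Jak3, the kinase of lymphoid cytokine receptors, was 9.48, 10.68, 10.31 and 10.73 in diabetic retinas and 9.40, 9.17, 9.21, 9.59 and 9.91 in control retinas. Diabetic retina 1 lay below controls 4 and 5, as for Stat3 it lay below control 5, and the difference was 0.84 (SE 0.27, adjusted p = 0.0871). Stat6, the factor of IL-4 signalling, differed by -0.05 (SE 0.06, adjusted p = 0.648). It was detected in all 4 diabetic and 2 of 5 control retinas, so it entered the test through the diabetic group. Its diabetic values of 7.07 to 7.12 were close to the lowest detected level. Tyk2 and Stat4 were not analysed here.

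Of 16 other inhibitors of the pathway, 11 were tested and 0 passed the adjusted threshold by limma or by the methods' t-test, with 7 of the 11 at an unadjusted p under 0.05 by limma, where 25.3% of all probes were. With the BeadChip as a block 1 of the 11 was at that p, and within BeadChip 2 none was. Socs5, a member of the family of Socs3, was 10.73, 10.98, 10.93 and 10.90 in diabetic retinas and 11.09, 11.10, 11.04, 11.07 and 11.03 in control retinas. Each diabetic value was below each control value, and the difference was -0.18 (SE 0.05, adjusted p = 0.0503). Socs1 and Cish were detected in no retina. The median difference of the 11 was -0.00, against -0.01 over all tested probes. Of the 7 at an unadjusted p under 0.05 by limma, Socs4, Socs5, Pias1, Pias3 and Pias4 were lower in diabetic retinas and Pias2 and Ptpn6 higher. All of these but Socs5 were named after their values were seen.

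Il10rb, the chain shared by receptors of IL-10, IL-22 and type III interferons, was the riser among 4 tested receptors of other JAK-using cytokines. It was 8.67, 8.51, 8.91 and 8.16 in diabetic retinas and 7.78, 7.99, 7.76, 7.86 and 7.93 in control retinas. The groups did not overlap and the difference was 0.70 (SE 0.13, 1.62-fold, adjusted p = 0.0172), a call held in 15 of 19 alternatives. Il2rg, Il10ra, Il13ra1 and Il22ra1 were detected in no retina. The interferon factors gave 2 tested genes and no call, with Irf7, the inducer of type I interferon genes, at a difference of 0.10 (SE 0.03, adjusted p = 0.0729). Irf2 was detected in no retina.

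**Figure D3:**
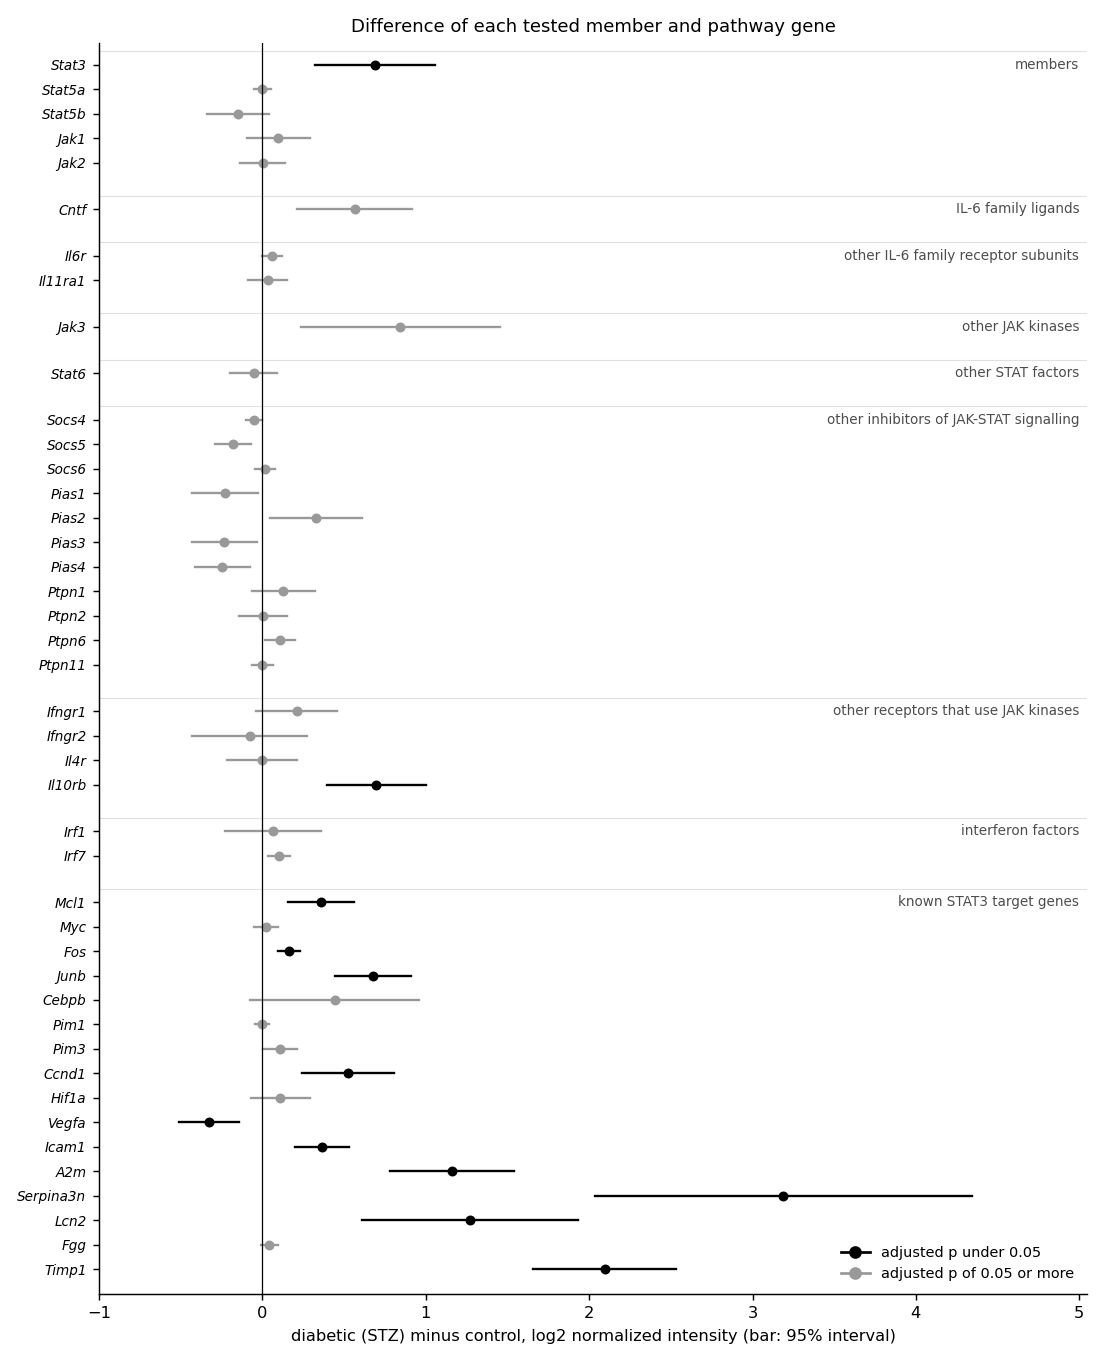
Difference of each tested member and pathway gene, diabetic minus control, in log2 normalized intensity (x axis) with its 95% interval, by list (y axis), black where the adjusted p was under 0.05. Stat3 is the black point among the 5 members at 0.69, and of the 11 other black points 10 are STAT3 targets and 1 is Il10rb.

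Of 16 tested STAT3 targets, 9 rose, 1 fell and 6 did not pass. This count includes Serpina3n and Fos, which were detected in all diabetic retinas but not in all controls, as were Myc and Fgg, which did not pass. Of the 12 targets detected in every retina, 7 rose and 1 fell, the median difference was 0.41 and 10 lay above 0. Of the 9496 probes detected in every retina, 5.00% rose and 4.79% fell, the median was -0.02 and 40.9% lay above 0. The list was drawn up with earlier results of these arrays known, and its counts are a description. The genes that rose were acute phase and secreted proteins (Serpina3n, A2m, Lcn2 and Timp1), transcription factors of the immediate early kind (Fos and Junb), the cell cycle gene Ccnd1, the survival gene Mcl1 and the adhesion molecule Icam1.

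Serpina3n, a secreted inhibitor of proteases that marks reactive glia, was 8.66, 10.20, 11.79 and 10.33 in diabetic retinas and 6.99, 7.03, 7.02, 7.08 and 7.16 in control retinas. It was detected in all 4 diabetic and 2 of 5 control retinas, so it entered the test through the diabetic group. The difference from controls that lay at or near the detection limit was 3.19 as fitted (SE 0.51, adjusted p = 0.00935, or 0.0222 with no filter on detection), and its exact size is uncertain because the control level was not above background in 3 retinas. Timp1, an inhibitor of matrix metalloproteinases, was 10.74, 11.07, 10.98 and 10.17 in diabetic retinas and 8.39, 8.66, 8.69, 8.48 and 8.99 in control retinas. The groups lay more than 1 log2 unit apart, and the difference was 2.10 (SE 0.19, 4.27-fold, adjusted p = 0.00191). Timp1 held its call in 18 of 19 alternatives, all but the one within BeadChip 2.

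A2m, the plasma protease inhibitor, rose by 1.16 (SE 0.17, adjusted p = 0.00641), and Lcn2, an iron-carrier binding protein of the acute phase, by 1.27 (SE 0.29, adjusted p = 0.0315). Junb averaged 8.84 ± 0.22 in diabetic and 8.17 ± 0.11 in control retinas (SD, n = 4 and 5). All diabetic values exceeded all control values, with a difference of 0.68 (SE 0.10, adjusted p = 0.00790). Fos, its partner in AP-1, rose by 0.16 (SE 0.03, adjusted p = 0.0129, or 0.0171 with no filter on detection). It was detected in 3 of 5 controls and also entered the test through the diabetic group, with control values of 7.06 to 7.14 near the detection limit.

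Ccnd1, which encodes cyclin D1, rose by 0.52 (SE 0.12, adjusted p = 0.0355) and Mcl1 by 0.36 (SE 0.09, adjusted p = 0.0430). Icam1 was 7.51, 7.82, 7.77 and 7.48 in diabetic retinas and 7.26, 7.30, 7.26, 7.23 and 7.34 in control retinas, a difference of 0.37 (SE 0.07, adjusted p = 0.0189). Vegfa, the vascular growth factor, was the target that fell. It was 7.46, 7.48, 7.36 and 7.30 in diabetic retinas and 7.72, 7.97, 7.62, 7.77 and 7.57 in control retinas, a fall of 0.33 on the log2 scale (SE 0.08, adjusted p = 0.0408).

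Of the 10 called targets 5, Serpina3n, Timp1, A2m, Junb and Fos, kept their calls when any 1 retina was left out. Serpina3n and Fos had entered the test through the diabetic group. The detection filter made on all 9 retinas was kept in these fits, so the filter itself was not tested again. Icam1 lost its call without diabetic retina 3 or control 4. Lcn2 and Mcl1 each lost it in 8 of the 9 cases, Vegfa in 7 and Ccnd1 in 6, with adjusted p-values up to 0.103. Of the 11 called pathway genes, Timp1 alone passed when the BeadChip was a block, where 179 probes passed in all (1.74%), and 0 passed within BeadChip 2, where 11 probes did (0.107%). At an unadjusted p under 0.05 all 11 passed in both fits, against 17.0% and 14.9% of all probes, but the 11 were chosen on the same retinas and the count is no independent support. The 6 targets that did not pass were Myc, Cebpb, Pim1, Pim3, Hif1a and Fgg, and Bcl2l1 and Fgb were detected in no retina.

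**Figure D4:**
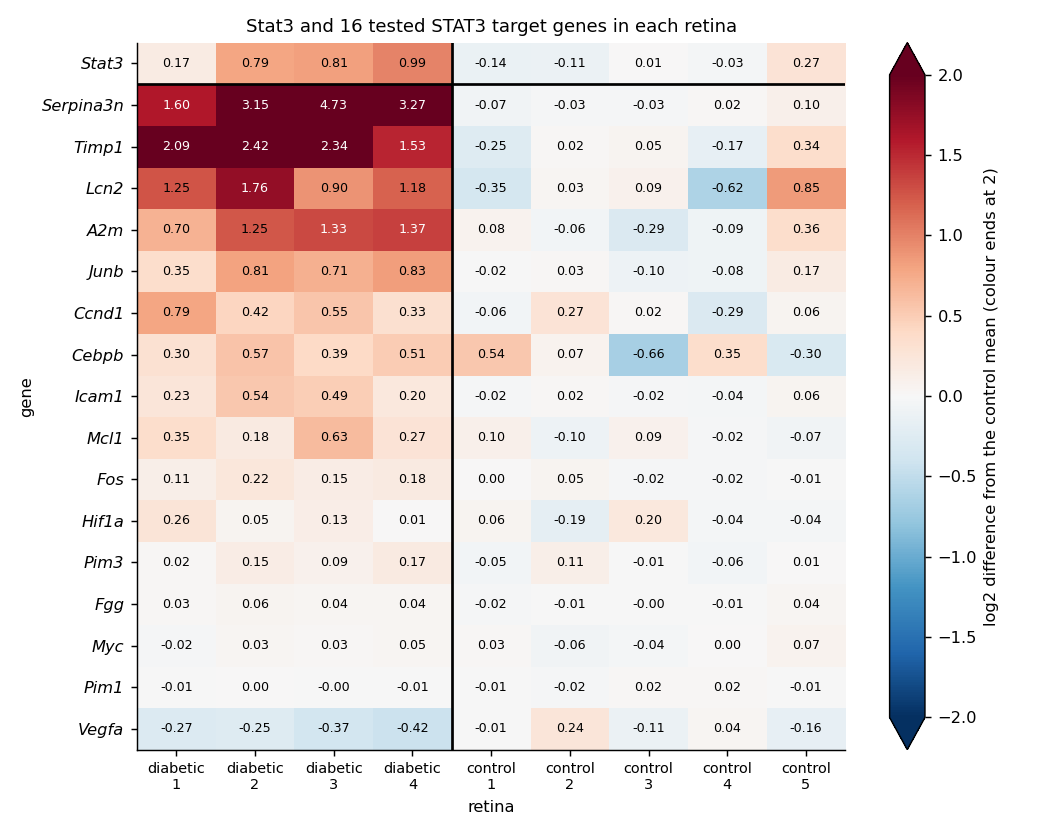
Log2 difference of each retina from the control mean of the gene (colour and printed value) for Stat3 and the 16 tested STAT3 targets (rows) in 4 diabetic and 5 control retinas (columns). Serpina3n and Timp1 differ most. Stat3 in diabetic retina 1, at 8.13, lies above its control mean of 7.96 and below control 5.

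STAT3 binds the palindrome TTCNNNGAA, and this motif was searched in the RefSeq promoter windows of the rat assembly GRCr8, 300 bases each from 250 before to 50 after the start of a gene. It reads the same on both strands and no other motif was searched. None of the 8 members with a window held it. Of the 8 called pathway genes with a window, which had 9 windows, 3 genes held it, against 8.87% of 33469 windows. Il10rb, among these 3, is not in the list of STAT3 targets. Matches in pathway genes that were not called were not counted, so called and other genes are not compared. A match is a description of the letters and not a site of binding, and the absence of one in this window says nothing of sites elsewhere. The first base of the match lay at -107 in Icam1, -123 in Serpina3n and -6 in Il10rb. These 3 genes and Stat3 are shown from 250 bases before to 20 bases after the start, on the strand of the gene and 5′ to 3′, with the match in capitals.
Stat3 (chr10:86363340-86363609, minus strand): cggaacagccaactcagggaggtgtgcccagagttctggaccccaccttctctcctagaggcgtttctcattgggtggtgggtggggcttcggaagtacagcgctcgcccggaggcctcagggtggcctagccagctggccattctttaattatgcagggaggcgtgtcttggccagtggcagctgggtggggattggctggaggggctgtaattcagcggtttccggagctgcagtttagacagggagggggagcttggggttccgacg
Icam1 (chr8:27829595-27829864, plus strand): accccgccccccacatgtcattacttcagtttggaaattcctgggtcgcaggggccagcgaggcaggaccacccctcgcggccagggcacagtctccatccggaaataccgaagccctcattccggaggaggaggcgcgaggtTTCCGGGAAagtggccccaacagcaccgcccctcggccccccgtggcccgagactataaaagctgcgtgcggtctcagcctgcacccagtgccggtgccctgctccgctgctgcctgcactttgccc
Serpina3n (chr6:129088142-129088411, plus strand): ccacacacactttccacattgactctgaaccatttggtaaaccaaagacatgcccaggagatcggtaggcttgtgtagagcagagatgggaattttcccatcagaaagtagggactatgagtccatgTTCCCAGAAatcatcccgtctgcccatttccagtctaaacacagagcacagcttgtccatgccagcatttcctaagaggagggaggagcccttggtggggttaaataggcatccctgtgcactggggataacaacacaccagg
Il10rb (chr11:44132386-44132655, plus strand): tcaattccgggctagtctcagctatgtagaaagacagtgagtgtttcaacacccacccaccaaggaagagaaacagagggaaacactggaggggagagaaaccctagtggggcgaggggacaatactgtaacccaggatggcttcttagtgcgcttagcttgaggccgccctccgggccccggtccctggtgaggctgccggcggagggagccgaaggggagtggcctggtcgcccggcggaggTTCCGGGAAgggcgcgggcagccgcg

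The genes most like Stat3 across retinas were C1qb (r = 0.97), Junb (0.96), Tshr (0.96), Jak3 (0.96) and Rwdd3 (0.95), of the 6784 probes that were detected on all 9 arrays and had a gene symbol. These are descriptions over 9 retinas that share the difference between groups. After the group means were removed, r was 0.91 for C1qb, 0.90 for Junb, 0.88 for Tshr, 0.91 for Jak3 and 0.86 for Rwdd3. C1qb, a chain of complement C1q made by microglia, was 0.46 higher in diabetic retinas (SE 0.09, adjusted p = 0.0186). Tshr encodes the thyrotropin receptor and was 0.24 higher (SE 0.06, adjusted p = 0.0403).

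Markers of other cell types were read beside Stat3. Of 9 microglia and leukocyte markers, 5 were tested and 0 passed by limma or the methods' t-test (1 at an unadjusted p under 0.05 by limma), and their summed linear intensity was 1048, 1254, 1175 and 1290 in diabetic retinas 1 to 4 and 949, 978, 1040, 1036 and 1173 in control retinas 1 to 5. The sum followed its brightest gene, Aif1, a microglial calcium-binding protein, which made up 40.0% to 52.5% of it, and the other 4 summed to 599 to 626 in diabetic and 569 to 594 in control retinas. Among these 4, Cd68, Tyrobp and Cd53 lay close to the lowest detected level, so the sums and the share of Aif1 include background. Aif1 was 8.81, 9.30, 9.16 and 9.40 in diabetic retinas and 8.57, 8.63, 8.87, 8.81 and 9.18 in control retinas (difference 0.36, SE 0.15, adjusted p = 0.183). For Aif1 as for Stat3, diabetic retina 4 was highest, and diabetic retina 1 was the lowest of its group and lay below control 5. Tyrobp was also highest in diabetic retina 4 and lowest of that group in retina 1. Cd53 was highest in retina 4 but lowest of that group in retina 2. Cd68 was lowest of the diabetic retinas in retina 4 and highest in retina 1. Laptm5 was highest in retina 2 and lowest of that group in retina 1. In diabetic retinas Tyrobp was 7.08 to 7.16, Cd53 7.08 to 7.14 and Cd68 7.09 to 7.21, where the lowest detected level was 7.04 to 7.05. They were detected in 2, 4 and 4 of 5 controls and entered the test through the diabetic group. The order of retinas for these genes is therefore uncertain. Ptprc, the pan-leukocyte marker CD45, was detected in no retina. The part of these cells in the Stat3 difference was not tested.

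**Figure D5:**
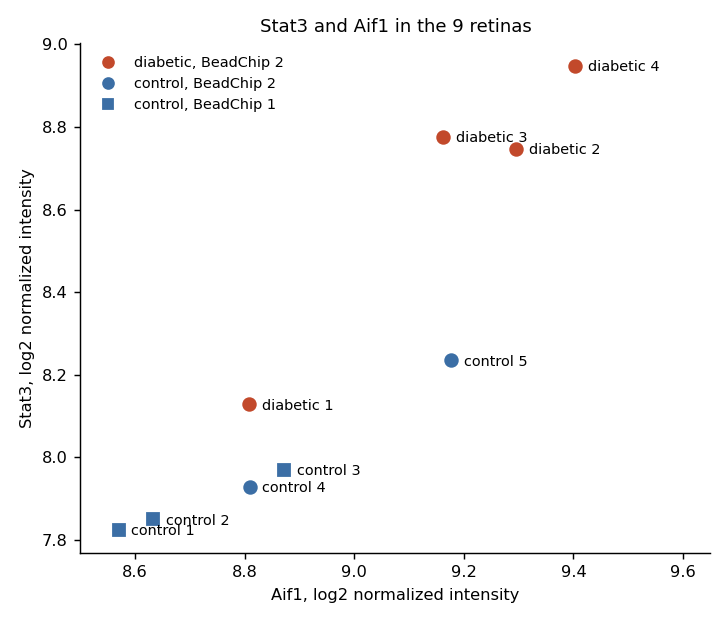
Stat3 (y axis) against the microglial gene Aif1 (x axis), both as log2 normalized intensity, in 4 diabetic (red) and 5 control (blue) retinas, with squares for BeadChip 1 and circles for BeadChip 2. Diabetic retina 1 lies near the controls on both axes, with Stat3 at 8.13 and Aif1 at 8.81. Aif1 did not pass the adjusted threshold and was picked after its values were seen.

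Of 7 Müller glia markers 4 were tested and 1 rose, Vim, which encodes the filament protein vimentin, by 0.64 (SE 0.07, adjusted p = 0.00237). The summed linear intensity of the 4 was 20932 to 23606 in diabetic and 14739 to 16471 in control retinas, with 63.5% to 75.3% of it from Vim. Without Vim the sums overlapped, at 5235 to 6165 in diabetic and 5196 to 5555 in control retinas. The other 3 differed by -0.29 for Rlbp1 (SE 0.12, adjusted p = 0.182), 0.28 for Slc1a3 (SE 0.10, adjusted p = 0.107) and 0.03 for Aqp4 (SE 0.02, adjusted p = 0.427), and none of them passed. These 3 and the single microglial markers were named after their values were seen. The 7 endothelial markers gave 0 calls of 3 tested by limma or the methods' t-test (1 at an unadjusted p under 0.05), with sums of 1220 to 1500 in diabetic and 1085 to 1277 in control retinas, and Cdh5 and Tek were detected in no retina. The 6 pigment epithelium markers gave 0 calls of 3 tested by either test (0 at an unadjusted p under 0.05), with sums of 478 to 1847 in diabetic and 530 to 4004 in control retinas. The lens fibre sum was 98547, 68411, 95888 and 64421 in diabetic retinas 1 to 4, where Stat3 was 8.13, 8.75, 8.78 and 8.95. In the same diabetic retinas Vim was 13.96, 13.87, 14.09 and 13.87, and in control retinas it was 13.21 to 13.46. The part of lens, glial or vascular cells in the Stat3 and Vim differences was not tested.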

How the data were processed

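Retinal RNA of 4 diabetic and 5 vehicle-treated rats was measured on RatRef-12 BeadChips. Per probe and array, the deposited table gives the mean bead intensity (linear) with its detection p-value, written by GenomeStudio 1.0.6, per the submitters' processing notes. The authors removed 1 diabetic array in quality control and called changes with a t-test. The authors' own quantile-normalized intensity values were also deposited and served as an alternative.

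Background was corrected with normexp (neqc, offset 16, negative controls inferred from the detection p), arrays were quantile normalized and values taken to log2 in R 4.3.3 with limma 3.58.1. Probes detected (p under 0.05) in each retina of either group entered limma tests, two-sided, with Benjamini-Hochberg adjustment over 10261 probes. Folds are on the scale with the offset, which understates changes of dim probes. The fit was tested on simulated data. Python 3.11.15 with pandas 2.3.3 and matplotlib 3.10.9 gave summaries and figures. Symbols came from the array annotation, with 13192 probes under 1 symbol and 9034 under none. Named were all members, per pathway list the genes past the threshold or else that with the smallest p, undetected genes, and the 5 genes most correlated with Stat3. The members and lists were chosen with earlier results of these data known. For arrays, the number of retinas limits the precision. Alternatives were the background correction, scaling, detection filter, BeadChip block, replicate block, test and each retina left out.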

Additional observations from a re-analysis of the deposited data

How the results depend on the processing

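All 19 alternatives kept Stat3 higher in diabetic retinas. The difference was 0.69 with no filter, 0.57 with the BeadChip as a block and within BeadChip 2, and 0.76 with the replicate block, none of them past the adjusted threshold, and 0.59 to 0.86 with 1 retina left out. The count of members at the adjusted p was 0 under these 4 settings and the methods' t-test with Benjamini-Hochberg adjustment, and 0 to 1 with 1 retina left out, where without diabetic retina 2, 3 or 4 or control 1, 2, 3 or 4 it was 0. At the methods' thresholds it was 0 within BeadChip 2. Stat5a turned to 0.0026 with the BeadChip as a block and within BeadChip 2, to 0.0017 with the replicate block and ranged from -0.010 to 0.0074 with 1 retina left out. Jak2 turned to -0.011 with the BeadChip as a block and within BeadChip 2 and ranged from -0.031 to 0.050 with 1 retina left out. A detection p under 0.01 gave no value for Stat5a. Of all probes, 956 passed as reported, against 77 with median scaling, 575 with no filter, 179 with the BeadChip as a block, 11 within BeadChip 2, 246 with the replicate block and 535 with the methods' t-test, and 471 to 1018 with 1 retina left out. Of pathway genes, 11 passed as reported, against 6 with median scaling, 7 with no filter, 1 with the BeadChip as a block, 0 within BeadChip 2 and 3 with the replicate block, and 6 to 11 with 1 retina left out. The same-numbered retinas had deviations correlated at -0.08, 0.16, -0.07 and 0.15, with 1 of 4 diabetic retinas closest to its own number. No pairing by number was seen, but 4 pairs are too few to exclude it. The causes of these changes were not tested. Within BeadChip 2 only 2 controls remain, and signals near background, as for Stat5a, Osmr and Socs3, limit what can be seen.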

Other observations

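Of the pathway genes, 12 were detected on some arrays and not tested. Osm and Hp were each detected in 3 of 4 diabetic and 2 of 5 control retinas, Cntfr in 2 of 4 and 2 of 5, and Epor, the erythropoietin receptor, in 2 of 4 and 0 of 5. Ifnar1 was detected in 1 diabetic and 3 control retinas. Ctf2, Socs2, Csf3r, Ghr and Prlr were each detected in 1 diabetic and 0 control retinas, and Ctf1 and Irf8 in 0 diabetic and 1 control retina. Diabetic retina 1 was the lowest of its group for 4 of the 9 STAT3 targets that rose, Serpina3n, A2m, Junb and Fos, a count made after their values were seen. Retina 1 was the lowest for 18.3% of the 497 probes that rose and for 30.0% of all 10261 tested probes. Diabetic retina 4 was the lowest for 3 of the same 9 targets, and retinas 2 and 3 for 1 each. Serpina3n and Fos entered the test through the diabetic group.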
